A study of Mus musculus with 2 samples.

Results

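The cytochrome P450 enzymes of families 1, 2 and 3 are the drug- and steroid-oxidizing monooxygenases of the liver, and their genes were examined here in mouse liver upon fasting and upon feeding. The members were taken by name alone, as every probe that is not a control and whose RefSeq transcript belongs to a gene called Cyp1, Cyp2 or Cyp3 followed by a single subfamily letter and a number. By this rule 72 probes for 56 genes were found among 20652 genes with a named probe. Of these 56 genes 55 were measured, meaning that the probe was well above background by the scanner software on at least 1 array, and 53 were so on both arrays. Cyp2b19 was well above background on neither array.

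The enzymes sit in the membrane of the endoplasmic reticulum, carry a heme group and take their electrons from P450 oxidoreductase and cytochrome b5. They oxidize drugs, toxins, steroids, bile acids and fatty acids. Members of family 1 are induced by planar aromatic compounds through the aryl hydrocarbon receptor AhR, and those of the 2b, 2c and 3a subfamilies by drugs through the nuclear receptors CAR and PXR. In rodent liver several members also differ between the sexes under the control of growth hormone, and many are expressed around the central vein.

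The design held 2 groups of male mice, fasting and feeding, with 1 array per group and the liver RNA of 3 mice pooled on each array. The labels describe the fasting group as fasted overnight for 14 to 16 h, and the feeding group in one place as fed after the fast and in another as having free access to food, so how long the mice had eaten is not known. The labels give no strain or age, and the methods of the study give male C57BL/6 J mice of about 8 to 12 weeks for its animals in general, with no genetic change or drug treatment stated for the mice of either group. The comparison asks which liver genes respond to food intake. Because each group is a single pooled sample, the differences have no replicate check and carry neither p-values nor standard errors. In whole liver, fewer cells of a type and less RNA per cell cannot be told apart.

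Each array is an Agilent one-colour array (Cy3), and a processed signal is the intensity of a spot after the scanner software subtracted its background. A change is the log2 difference, feeding minus fasting, after quantile normalization of both arrays, and a gene is called at 2-fold, the threshold of the study's methods. Of several probes of a gene, the one of highest mean signal stands for it. Where a probe was dim on 1 array, the change is a lower bound, or no fold is given if that bound is under 1. Processed signals had a median of 61.5 on the fasting array and 52.8 on the feeding array, the scanner software called 63.1% and 72.3% of them well above background, and no spot was saturated. A spread could be had from probes spotted several times alone. With genes split by signal into 3 groups of like size, the SD of a log2 difference between single spots of both arrays was 0.42 in the dim group, 0.14 in the middle group and 0.10 in the bright group. This spread is that of repeated spots within an array. It leaves out differences between labellings, between arrays and between mice.

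The tissue carried its defining marker genes. All 6 hepatocyte markers were well above background on both arrays, with a summed processed signal of 597604 upon fasting and 494101 upon feeding, and none was past 2-fold. The 4 Kupffer cell markers summed to 47979 and 37314, and the 3 markers of sinusoidal endothelium to 23044 and 16646, with Pecam1 past 2-fold lower (-1.04). Markers of stellate cells, bile duct cells, leukocytes, enterocytes, pancreatic acinar cells and kidney tubule summed to between 7.06 and 12555 upon fasting. The highest of these sums was that of the enterocyte list, in which Fabp2 alone read 12511. In the pancreatic list Cela2a was past 2-fold lower (-2.70) and Prss2 past 2-fold higher (at least 1.37), with a summed signal of 443.1 and 301.3. The part of other cells in the values given next was not tested.

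The genes of families 1 to 3 were little different between the pools. Only Cyp2u1 and Cyp2d37-ps rose at least 2-fold upon feeding, and none fell as much. This is 2 of 55 genes (3.64%), beside 1292 of all 16342 measured genes (7.91%). Under another background correction, normexp, it is 3.64% of the members beside 3.23% of all genes. A lower share of members past 2-fold therefore depends on the background correction. In the main setting, the 537 genes that rose at least 2-fold make 3.29% of all genes. The share of members that rose is near that background. At 1.5-fold, 3 members were higher and 4 lower (12.7%), beside 21.1% of all genes. The median change of the members was -0.03, with all genes at 0, and the median size of their change regardless of sign was 0.18, with all genes at 0.26. Of the members 38 (69.1%) lay within 0.3 of no change, beside 55.4% of all genes. No test of these differences can be made with 1 array per group. Genes with no fold, among them Cyp2b23 and Cyp2j11, count as 0 in these medians and shares. Of all genes 15197 had a fold, and their median change was 0.01. Under the main scaling 34 members were below 0 and 19 above, and 34 were below the median of all genes. With each array scaled by its median, which moved the median of all genes to 0.094, 20 were below 0 and 28 below that median, so the balance of directions is not settled.

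**Figure D1:**
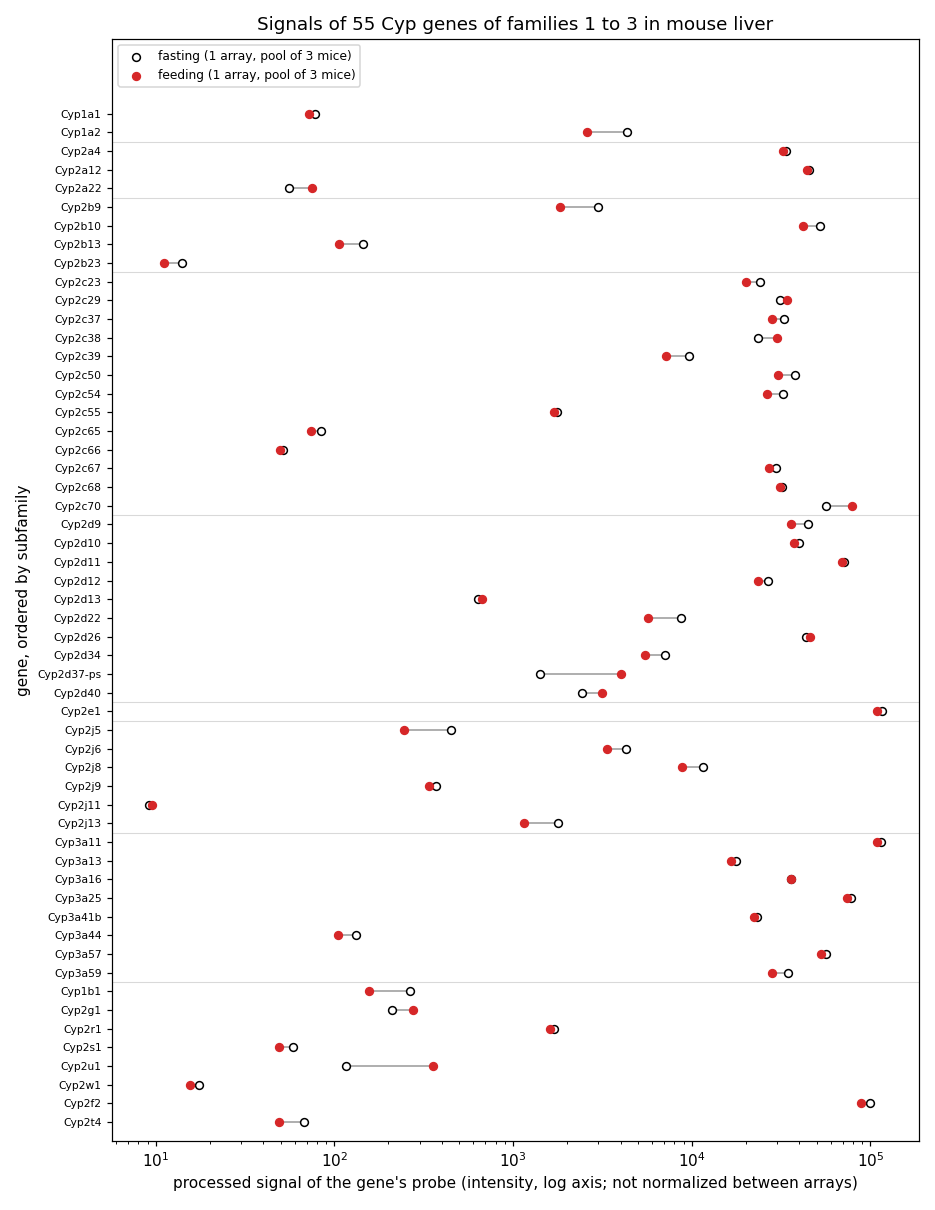
Processed signal of the representative probe of each of the 55 measured genes, on a log axis and before normalization between arrays, with open circles for fasting and red circles for feeding (1 array each, a pool of 3 mice) and genes ordered by subfamily. The gap is widest for Cyp2u1 and Cyp2d37-ps, while Cyp3a11, Cyp2e1 and Cyp2a12 nearly coincide, and Cyp2b23 and Cyp2j11 were dim upon fasting and have no fold.

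The member with the largest change under the main setting was Cyp2u1 (transcript NM_027816), which encodes a fatty acid hydroxylase that is expressed in many tissues. Its probe read 116.5 in processed signal upon fasting and 356.6 upon feeding, both well above background. The change was 1.79, or 3.47-fold, and 0.667% of all genes rose more. Its probe belongs to the middle group of genes by signal. Under the normexp correction the change was 1.11, still past 2-fold but smaller than that of Cyp2d37-ps (1.42). In the order of measured genes along the chromosome Cyp2u1 lies between Hadh and Sgms2. Hadh, an enzyme of fatty acid oxidation, differed by -0.96, and Sgms2, a sphingomyelin synthase, by -0.75. Both neighbours thus differed in the opposite direction to Cyp2u1, and neither was past 2-fold.

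Cyp2d37-ps (transcript NR_033515) is annotated as a pseudogene of the 2d cluster. Its signal was 1411 upon fasting and 4015 upon feeding, a change of 1.56 or 2.94-fold, and 1.02% of all genes rose more. The change ran from 1.42 to 1.74 over the alternatives tried. The nearest measured genes on its 2 sides, Cyp2d13 and Cyp2d40, had signals of 635.1 and 2438 upon fasting. Upon feeding they had 667.7 and 3162, and they differed by 0.20 and 0.42. The transcripts of the 2d cluster are close copies of each other, as are those within the 2c and 3a clusters, and the sequences of the probes were not analysed here. How far a probe also reads the transcript of a close copy is therefore not known, and the values of single genes in these clusters are uncertain to that extent.

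The 3a subfamily, whose human relative CYP3A4 oxidizes a large part of all drugs, had the smallest spread. All 8 measured genes lay between -0.23 and 0.02, with a median of -0.02. Cyp3a11, the main inducible 3a enzyme of mouse liver, had a signal of 114478 upon fasting and 108763 upon feeding, a change of -0.01. At the ends of the range, Cyp3a59 had signals of 34334 and 28214 (-0.23) and Cyp3a16 of 36123 and 36097 (0.02). Cyp3a25 and Cyp3a57 both differed by 0.01, Cyp3a41b by -0.04 and Cyp3a44, the dimmest of them with signals of 131.6 and 105.0, by -0.12. For Cyp3a13 the representative probe gave -0.06 while its other measured probe gave -0.82, so the small spread of the subfamily holds for 1 of the probes of that gene. With scaling by the median of each array the median of the subfamily was 0.15.

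The 2e subfamily has a single gene, Cyp2e1, which oxidizes ethanol, acetone and other small molecules and whose activity is known to increase when ketone bodies are high. Its signal was 115827 upon fasting and 108708 upon feeding, a change of -0.04, and its other probe gave -0.11. Neither probe differed by as much as the threshold. Cyp2f2, a periportal enzyme that oxidizes naphthalene, likewise had signals of 99614 and 88941 and a change of -0.04.

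Of the 2a subfamily 3 genes were measured. Cyp2a12, a steroid hydroxylase, read 45417 upon fasting and 43976 upon feeding (-0.0019), and Cyp2a4, a testosterone hydroxylase, had 33652 and 32196 (-0.02). The transcript of Cyp2a4 is nearly identical to that of Cyp2a5, the coumarin hydroxylase, which was not analysed here, so the value may hold both. Cyp2a22 was dim, at 55.4 and 75.2, with a change of 0.66 that is within 2 times the SD of dim spots and was 0.30 at its lowest over the alternatives.

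Of the 2b subfamily Cyp2b10, the classical target of CAR, had a signal of 52284 upon fasting and 41791 upon feeding, a change of -0.26. Cyp2b9, a female-predominant steroid hydroxylase that was nonetheless measured here in male liver, had signals of 2980 and 1820. Its change of -0.68 is past 1.5-fold, short of 2-fold, and was -0.48 at its smallest over the alternatives. Cyp2b13 had signals of 144.2 and 106.3 (-0.23). Cyp2b23 was well above background upon feeding alone and has no fold, so the median of the subfamily, -0.24, counts it as 0.

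The 2c subfamily, which forms epoxides from arachidonic acid and oxidizes drugs, was the largest, with 13 measured genes between -0.41 and 0.58 and a median of -0.01. Cyp2c70, which makes muricholic acids, the bile acids particular to mice and rats, stood at the top of this range. Its signal was 56550 upon fasting and 78937 upon feeding, a change of 0.58, which is many times the SD of bright spots of 0.10, short of the threshold, and lay between 0.56 and 0.72 over the alternatives. At the other end Cyp2c39, a retinoic acid hydroxylase, had signals of 9600 and 7136, a change of -0.41. Cyp2c37, Cyp2c50 and Cyp2c54, which act on arachidonic acid and lie close together in the cluster, had changes of -0.16, -0.27 and -0.26. The other probes of Cyp2c54 gave -0.61 and -0.47.

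Cyp2c29 was the only member with many spots, and it shows how far spots of the same array differ. The 10 spots of its probe had processed signals from 28941 to 33271 upon fasting, with a median of 30560, and from 32860 to 36287 upon feeding, with a median of 33905. The spots of the feeding array lay higher, with ranges that overlap slightly, and after normalization the change was 0.18. Cyp2c38 gave 2 different answers. Its brighter probe had 23361 and 30058, a change of 0.40, and its dimmer probe had 889.5 and 423.9, a change of -0.94, a gap of 1.35 between the probes. Of the 13 members with more than 1 measured probe it was the only one whose probes differed in sign.

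Of the 2d subfamily, in which mice have many genes and humans have CYP2D6, 10 genes were measured with a median of 0.01. Apart from Cyp2d37-ps they lay between -0.59 and 0.42. Cyp2d22, the member thought closest in function to CYP2D6, had a signal of 8664 upon fasting and 5652 upon feeding, a change of -0.59, which was -0.38 at its smallest over the alternatives. Cyp2d11 had 70911 and 69586 (0.05), Cyp2d10 had 39645 and 37480 (-0.04) and Cyp2d26 had 43571 and 45693 (0.11). Cyp2d9, the male-predominant testosterone 16-alpha-hydroxylase, had 44596 and 35708, a change of -0.29.

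The 2j subfamily, which makes epoxides of arachidonic and linoleic acid, had a median of -0.33 over 6 genes, with Cyp2j11, which has no fold, counted as 0. The medians of 1a (-0.30) and 2b (-0.24) were near it. That of 1a is of 2 genes that differed in direction, Cyp1a2 (-0.70) and the dim Cyp1a1 (0.11). Both medians were below that of 2j with scaling by the median of each array (-0.19 and -0.15, beside -0.12) or by its 75th percentile (-0.31 and -0.27, beside -0.25). Cyp2j5 had a signal of 451.0 upon fasting and 245.4 upon feeding, a change of -0.72, the lowest of all members under the main setting. Under the normexp correction it was -0.48, and Cyp2b9 (-0.63), Cyp1a2 (-0.61) and Cyp2d22 (-0.59) were lower. Cyp2j13 had 1781 and 1152 (-0.58), though its other probe gave -0.08. Cyp2j8 had 11486 and 8857 (-0.36) and Cyp2j6 had 4259 and 3358 (-0.31). These 4 genes were below 0 under each alternative run, with none past 2-fold, and the median of the subfamily ran from -0.12 to -0.36. Cyp2j9 had 369.0 and 340.0, a change of 0.03 after normalization, and Cyp2j11 was well above background upon feeding alone.

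**Figure D2:**
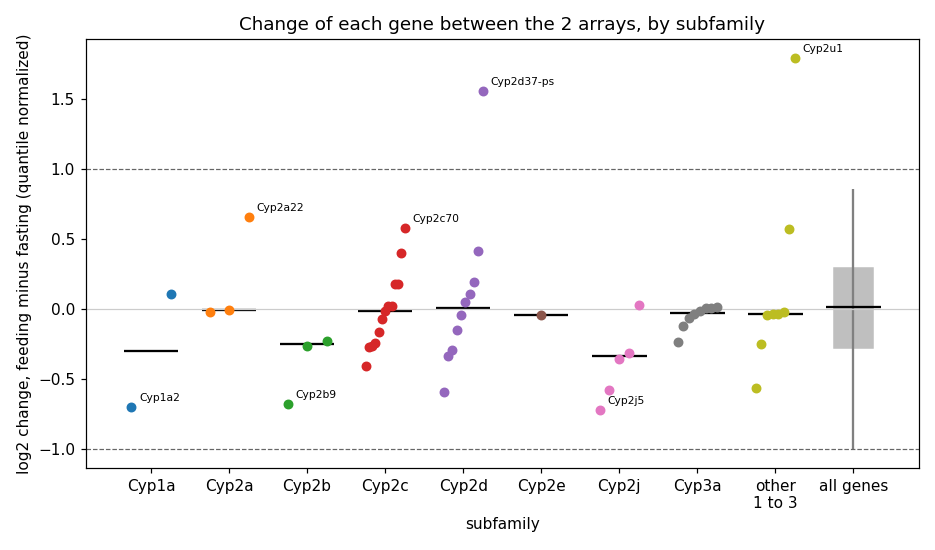
Change of each member with a fold, as log2 of feeding minus fasting after quantile normalization, by subfamily; black bars are subfamily medians, with Cyp2b23 and Cyp2j11, which have no fold and are not drawn, counted as 0, dashed lines mark 2-fold, and the grey box and line give the quartiles and the 5th to 95th percentile of 15197 genes with a fold. Only Cyp2u1 (1.79) and Cyp2d37-ps (1.56) lie past 2-fold, and the 3a genes lie within 0.3 of 0. The medians of 1a (-0.30, of 2 genes on opposite sides of 0), 2b (-0.24) and 2j (-0.33) lie below those of the other named subfamilies.

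In family 1, Cyp1a2, the hepatic enzyme that oxidizes caffeine and aromatic amines, had a signal of 4330 upon fasting and 2594 upon feeding. Its change was -0.70, past 1.5-fold and short of 2-fold, and lay between -0.70 and -0.50 over the alternatives. Cyp1a1, the most inducible AhR target, was dim on both arrays, at 77.8 and 72.3, with a change of 0.11 that is smaller than the SD of dim spots. Cyp1b1, which is expressed mainly in other cells than hepatocytes, had 264.9 and 156.3, a change of -0.56, while the endothelial markers had a median change of -0.48 and the Kupffer cell markers of -0.27. The part of such cells in the value of Cyp1b1 was not tested.

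The remaining genes stand alone in their subfamilies. Cyp2r1, the vitamin D 25-hydroxylase, had a signal of 1700 upon fasting and 1613 upon feeding, a change of -0.03. Cyp2g1, an enzyme of the olfactory mucosa, had 211.0 and 276.6 (0.57). Cyp2s1, Cyp2t4 and Cyp2w1, which are expressed mainly outside the liver, were dim, with signals of at most 67.5 on either array, and had changes of -0.03, -0.25 and -0.02.

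Against their known regulators the members were as follows, each group being a list of genes written from general knowledge. Of 11 genes induced through CAR or PXR 10 were measured, none was past 2-fold, their median was -0.11, and all lay within 0.3 of 0 under quantile normalization with 1 probe per gene. Outside that range were Cyp2c54 (-0.45) and Cyp3a13 (-0.44) with probes averaged, and Cyp2c29 (0.37) with scaling by the median. Cyp2b13 (-0.33) was also outside it with scaling by the 75th percentile. The 3 AhR-induced genes are those of family 1, with a median of -0.56 and none past 2-fold. Of 10 female-predominant genes 7 were measured, none was past 2-fold, and the median was -0.12, with Cyp2b9 the farthest from 0. Their signals in the male fasting pool ran from 131.6 (Cyp3a44) to 36123 (Cyp3a16). How far their probes read the transcripts of close copies was not tested. Of 8 pericentral genes 7 were measured, none was past 2-fold, and the median was -0.16, with Cyp1a2 the farthest from 0, while the periportal Cyp2f2 differed by -0.04. All genes had a median of 0 and 7.91% of them were past 2-fold.

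Members with high signals had small changes. Of the 26 members with a mean normalized log2 signal of at least 14, none was past 2-fold, the changes ran from -0.29 to 0.58, and the median size of change was 0.066. Among the 799 genes with such signals 6.51% were past 2-fold and the median size was 0.17. The limit of 14 was chosen after the values were seen, and with 12 none of 30 members was past 2-fold, beside 5.94% of 2642 genes. Some member changes under 2-fold, such as that of Cyp2c70 (0.58), exceeded 2 times the SD of single spots. The share of all genes that did so was not counted, and how much arrays and mice vary is unknown.

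**Figure D3:**
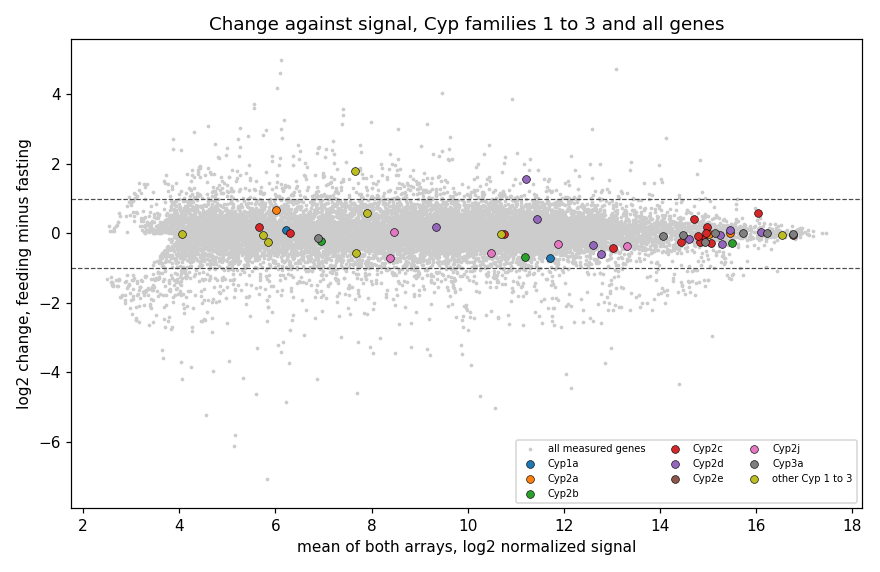
Change of each gene (log2, feeding minus fasting) against the mean log2 normalized signal of both arrays, with genes that have a fold in grey, members coloured by subfamily and dashed lines at 2-fold. The 26 members with a mean of at least 14 lie between -0.29 and 0.58, and the 2 genes past 2-fold have lower signals.

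The promoters of 5 members under 2-fold are shown, because they hold low, high and near-zero changes among these, with Cyp1a2 and Cyp2j5 among the lowest, Cyp2c70 among the highest, and Cyp3a11 and Cyp2e1 near 0. They were chosen after the values were seen. Each sequence holds the 250 bases before the annotated start, 5′ to 3′ on the strand of the gene, from RefSeq on assembly GRCm38.p6. Capitals mark the letters of a TATA box (TATAAA), the motif CAAAGTNCA of the liver factor HNF4 or the forkhead motif TGTTTAC, each on either strand. On the strand of the gene, the TATA letters lie 29 bases before the start in Cyp1a2, 31 in Cyp2e1 and 234 in Cyp3a11. On the opposite strand they lie 29 bases before it in Cyp2c70 and 128 in Cyp2j5. Whether any of them acts as a TATA box was not tested. Cyp1a2 lies at chr9:57683656-57683905 (minus strand), Cyp2j5 at chr4:96664120-96664369 (minus strand), Cyp2c70 at chr19:40187287-40187536 (minus strand), Cyp3a11 at chr5:145879855-145880104 (minus strand) and Cyp2e1 at chr7:140763569-140763818 (plus strand).
Cyp1a2: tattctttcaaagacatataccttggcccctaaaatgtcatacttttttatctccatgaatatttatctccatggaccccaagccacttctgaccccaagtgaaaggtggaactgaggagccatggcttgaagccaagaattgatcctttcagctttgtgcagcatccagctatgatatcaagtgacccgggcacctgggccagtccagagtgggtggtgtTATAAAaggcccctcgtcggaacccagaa
Cyp2j5: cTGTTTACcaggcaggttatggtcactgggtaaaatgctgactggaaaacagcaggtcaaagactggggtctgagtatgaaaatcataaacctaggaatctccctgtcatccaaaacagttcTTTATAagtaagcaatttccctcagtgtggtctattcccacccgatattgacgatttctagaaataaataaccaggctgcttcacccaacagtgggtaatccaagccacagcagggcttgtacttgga
Cyp2c70: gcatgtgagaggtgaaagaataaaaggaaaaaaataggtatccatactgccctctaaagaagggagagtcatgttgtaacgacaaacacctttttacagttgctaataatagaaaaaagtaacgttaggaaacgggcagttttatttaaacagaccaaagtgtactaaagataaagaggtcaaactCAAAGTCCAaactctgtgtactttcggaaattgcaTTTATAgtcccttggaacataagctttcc
Cyp3a11: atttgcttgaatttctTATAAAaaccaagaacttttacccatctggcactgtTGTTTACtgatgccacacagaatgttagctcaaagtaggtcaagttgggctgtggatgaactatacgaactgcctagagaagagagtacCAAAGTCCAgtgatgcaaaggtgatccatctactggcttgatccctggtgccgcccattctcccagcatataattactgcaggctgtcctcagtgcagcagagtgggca
Cyp2e1: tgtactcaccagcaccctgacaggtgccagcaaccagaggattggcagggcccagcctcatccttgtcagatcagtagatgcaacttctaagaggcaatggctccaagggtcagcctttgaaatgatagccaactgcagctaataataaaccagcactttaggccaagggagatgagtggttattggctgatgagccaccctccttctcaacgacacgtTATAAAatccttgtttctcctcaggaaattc

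Of the 56 genes 47 had a promoter in the table, with 50 promoters in all. The TATA box letters, at any place and on either strand, were in 46.0% of them, beside 12.4% of all 32851 promoters of the same length. The HNF4 motif was in 11 of them (22.0%), beside 1.19% of all promoters, and these 11 belonged to the 2c, 2d and 3a subfamilies. The forkhead motif was in 16.0% and 3.17%, and the C/EBP motif TTGCNNAA in 24.0% and 9.56%. The core of the AhR site, TNGCGTG, was in 2.0% and 4.10%, in Cyp2c68 alone, and the STAT5 motif TTCNNNGAA in 2.0% and 7.02%. The E-box CACGTG was also in 2.0%, beside 6.02%. The PAR bZIP motif TTATGTAA was in 0 of the 50 member promoters, beside 0.819% of all. Genes of a cluster arose by duplication and share promoter sequence, so the members are not independent, and a match of letters is not a binding site. The 11 genes with the HNF4 motif had a median change of -0.01 and the 35 measured genes without it of -0.03. With the TATA letters the median was -0.0019 (23 genes) and without them -0.16 (23 genes). With the C/EBP motif it was -0.12 (10 genes) and without it -0.02 (36 genes). For the forkhead motif these medians were -0.04 (7 genes) and -0.03 (39 genes). A relation of motifs to change was not tested.

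Genes that serve or regulate the enzymes were all measured, 41 of 41, with 3 past 2-fold higher and 2 lower (12.2%, beside 7.91% of all genes). Por, the oxidoreductase that supplies electrons to all these enzymes, had a signal of 45992 upon fasting and 29216 upon feeding, a change of -0.62. Cyb5a had 77402 and 76828 (0.07) and Cyb5b had 11153 and 15193 (0.46). Of 10 genes of heme synthesis and breakdown 1 was past 2-fold. This was Alad, the enzyme that forms porphobilinogen, which rose from 1547 to 3156, a change of 1.08. Alas1, the rate-limiting enzyme of heme synthesis, had 42857 and 54181 (0.41).

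Of the xenobiotic receptors, Nr1i2, which encodes PXR, had a signal of 2109 upon fasting and 1166 upon feeding, a change of -0.80. Nr1i3, which encodes CAR, had 2385 and 3846, a change of 0.73. The receptors therefore differed in opposite directions, both short of 2-fold. The probes of Ahr disagreed. The brighter had 5368 and 5840, a change of 0.15, and the dimmer 99.4 and 9.75, a change of -3.17, so the mean of both, -1.51, is past 2-fold lower. Its partner Arnt differed by 0.08, and of other AhR targets Nqo1 differed by -0.21 and Tiparp by 0.34.

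Among liver transcription factors Cebpb fell from 39970 to 15136, a change of -1.37. Hnf4a had 79955 and 55761 (-0.43) and Foxa2 had 2298 and 3888 (0.79). In the growth hormone pathway Cux2, a female-predominant repressor of male-predominant genes, rose from 21.2 to 144.8, a change of 2.96 on a dim probe that was 0.98 under the normexp correction. Stat5b had 8626 and 5056 (-0.74), and Socs2, a target of growth hormone, had 1099 and 513.3 (-0.99). Of the PAR bZIP factors, clock-controlled regulators of detoxification genes, Hlf rose from 599.1 to 1512, a change of 1.43, while Dbp differed by 0.09 and Tef by -0.16. Ppargc1a, a coactivator of the fasting response, fell from 1434 to 135.1, a change of -3.26.

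**Figure D4:**
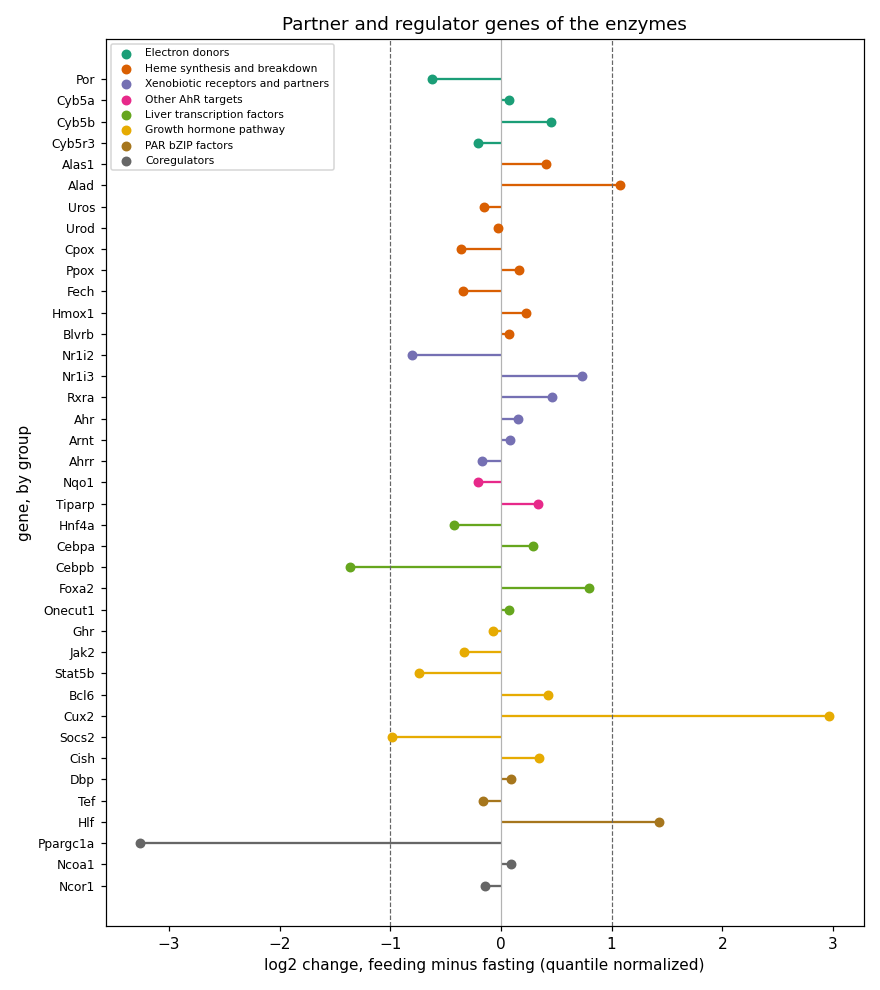
Change (log2, feeding minus fasting, quantile normalized) of 39 of the 41 genes that serve or regulate the enzymes, coloured by group, with dashed lines at 2-fold; the value of Onecut1 is a lower bound. Alad (1.08), Hlf (1.43) and Cux2 (2.96) lie past 2-fold higher, and Cebpb (-1.37) and Ppargc1a (-3.26) past 2-fold lower.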

How the data were processed

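The authors pooled liver RNA of 3 mice per group, labelled it with Cy3, hybridised 1 Agilent array per group and read the spots out in Feature Extraction 11.0.1.1. The deposited values are intensities per spot, with the background already subtracted in the processed signal and no normalization between arrays. The deposited value table of the series equalled the mean local background of the same spot at 44397 of 44397 spots on both arrays (relative tolerance 1e-06) and was not used.

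Control spots and outlier spots (123 upon fasting, 98 upon feeding) were removed, the log2 signals of a probe were averaged, and 39402 probes were quantile normalized, as in the study's methods. Of these probes 27218 (69.1%) matched 1 gene through the RefSeq table of assembly GRCm38.p6. The array design uses an older assembly, so no coordinates of probes are given. A lower bound was set with the dim value raised to the lowest signal well above background on its array, where it was below that.

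Named were the members and partner genes past 2-fold, the brightest and the most changed genes of each subfamily, some well known genes, and genes whose probes disagreed by more than 1 on the log2 scale. Other members were named beyond this rule after their values were seen, and a few genes and a motif are not reported here. The members, lists and tests were chosen with earlier results of these data known. With 1 array per group no test could be run. The number of arrays limits the precision. Alternatives tried were scaling to the 75th percentile or the median, normexp with an offset of 50 (limma 3.58.1, R 4.3.3), averaging the probes of a gene, counting by probe, other filters, no bound, and thresholds of 1.5-fold and 3-fold. The procedure was tested on simulated data. Python 3.11.15, pandas 2.3.3, numpy 2.4.6 and matplotlib 3.10.9 were used.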

Additional observations from a re-analysis of the deposited data

How the results depend on the processing

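All 55 measured members kept their side of the 2-fold threshold under the alternative scalings, background correction, probe rules and filters, and 2 members were past it, both higher, in each of these. No member or partner gene past 2-fold in the main setting changed sign under these, and other genes were not checked for this. Of the partner genes Ahr, at 0.15, was -1.51 with its probes averaged, which makes 3 partner genes lower in place of 2, and the probes of Ncor1 (-0.14) also disagreed, from -0.16 to 1.19. With each array scaled by its median, the median change of the members was 0.082, and the subfamily medians were -0.19 for 1a, 0.19 for 2a, -0.15 for 2b, 0.12 for 2c, 0.18 for 2d, 0.14 for 2e, -0.12 for 2j and 0.15 for 3a. With probes counted in place of genes, the 2c median was -0.14. At 1.5-fold, 3 members were higher and 4 lower (12.7%), beside 21.1% of all genes. Of the 41 partner genes 7 were higher and 6 lower at 1.5-fold (31.7%). At 3-fold, 1 member was higher (1.82%), beside 2.87% of all genes, and of the 41 partner genes 1 was higher and 1 lower. Among all genes 1292 were past 2-fold, and 527 under the normexp correction, 215 higher and 312 lower. Those 527 make 3.23% of all genes, beside 3.64% of the members. The share of all genes past 2-fold was 8.35% with scaling by the median, at 717 higher and 648 lower, and 10.0% without the lower bound, at 876 higher and 759 lower. The main setting had 537 higher and 755 lower. The cause of these differences was not tested. Of the members under 2-fold 39 moved under some alternative by more than the SD of single spots at their signal, so the sign of small changes is not settled. The planned naming of probes by the symbols of the array design was not run. No paired analysis was possible because each group holds 1 array. Dim members were limited by signal over background, with local backgrounds from 21 to 47.5 upon fasting and from 19 to 28 upon feeding at their spots.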

Other observations

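Outside families 1 to 3, 35 cytochrome P450 genes were measured, and 3 of them (8.57%) were past 2-fold, near the 7.91% of all genes. They are named because of their values. Cyp26a1, which breaks down retinoic acid, rose from a processed signal of 9678 upon fasting to 28102 upon feeding, a log2 change of 1.57. Cyp4f39, an enzyme known from the skin, rose from 24.8 to 208.3, a change of 3.25 on a dim probe. Cyp8b1, the sterol 12-alpha-hydroxylase, fell from 2602 to 1082, a change of -1.21. Of the 19 genes of family 4, which hydroxylate fatty acids, 1 was past 2-fold, and their median change was -0.01.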
